A study of Mus musculus with 12 samples.

Results

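The 34 genes described here carry fatty acids from the blood into the mitochondria of the heart and oxidise them there. They were chosen by name for that function, with earlier results of these data known. All 34 were found in each of the 4 tables, among 16246 genes listed in at least 1 table. PolyA RNA of mouse heart had been sequenced in 12 samples, 3 in each of 4 groups, to compare a diet that lacks the branched-chain amino acids (BCAA) with one that holds them, in pressure-overloaded and in sham-operated mice. The groups were a BCAA-free diet with TAC, a BCAA-free diet with sham surgery, a BCAA-control diet with TAC and a BCAA-control diet with sham surgery. TAC, transverse aortic constriction, narrows the aorta so that the left ventricle works against a raised pressure. All mice were male C57Bl/6J, aged 12 weeks, with no genetic change named in the labels. The diets were given from 4 days before surgery until the end, 2 weeks after it. The labels name the heart as a whole and not a chamber, and do not say whether a sample was 1 animal or a pool, so the p-values rest on the spread among these 3 libraries a group alone, which could be technical.

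The heart draws most of its energy from fatty acids. Lipoprotein lipase frees them from circulating triglyceride, membrane proteins and binding proteins bring them to acyl-CoA synthetase, and the carnitine shuttle carries the activated acids into mitochondria, where rounds of dehydrogenation, hydration, a further dehydrogenation and thiolysis cut off acetyl-CoA. Malonyl-CoA blocks the entry step of the shuttle, and malonyl-CoA decarboxylase removes that block. In the pressure-overloaded heart of rodents, a lower use of fatty acids is a long-known feature of the failing stage.

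Values are normalized read counts, which are comparable only within a table, and the 4 tables had been normalized separately. Over the genes of the TAC tables a library held 13848953 to 52059546 reads, so that counting error was small for these genes. Per kilobase of exon and in BCAA-control sham libraries, the highest mean was that of Fabp3, the heart-type fatty acid binding protein, at 108745. Ech1, a dienoyl-CoA isomerase, followed at 16817, then the thiolase Acaa2 at 16699 and the long-chain dehydrogenase Acadl at 15685. The muscle form of carnitine palmitoyltransferase 1, Cpt1b, had 1596 per kilobase and the liver form Cpt1a 253. The thioesterase Acot1 was the lowest of the 34, at 199.8. As a check of the labelled tissue, the summed value of 10 cardiomyocyte markers was 1998672 to 2891797 in the BCAA-control libraries, and that of 8 adipocyte markers 917.5 to 2057.

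Promoter sequence from RefSeq (GRCm38.p6) was at hand for 28 of the 34 genes, and 3 stretches are shown because they belong to genes on which the results below turn or to the motifs of known regulators of this pathway. Motifs were searched on both strands in the 250 bases before each RefSeq start, and a match is only a run of letters. The direct repeat bound by PPAR with RXR, 2 copies of AGGTCA in one direction with any 1 base between them, was in 0 of the 28 windows and in 0.0407% of all 27025 windows, and TCAAGGTCA, the extended half-site of ERR receptors, in 0 and 0.422%. The shorter AAGGTCA, which lies within TCAAGGTCA, was in 1 of the 28, that of Acadm, the medium-chain dehydrogenase, against 4.7% of all windows. GGGCGG, bound by Sp1-type factors, was in 19 of the 28 (67.9%) and in 35.4% of all, and CCAAT in 13 (46.4%) and in 37.5% of all. In the sequences the motif is in capitals: TGACCTT, the reverse complement of AAGGTCA, which begins 249 bases before the start of Acadm on the minus strand; GGGCGG at 90 and 25 bases before Hadhb on the plus strand; and CCAAT or its reverse complement ATTGG at 81, 76 and 46 bases before Mlycd on the plus strand.
Acadm, chr3:153944644-153944893: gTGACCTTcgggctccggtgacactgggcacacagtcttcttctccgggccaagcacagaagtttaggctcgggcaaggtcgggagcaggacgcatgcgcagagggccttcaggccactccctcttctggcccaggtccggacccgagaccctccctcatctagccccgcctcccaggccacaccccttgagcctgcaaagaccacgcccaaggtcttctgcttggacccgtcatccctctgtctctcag
Hadhb, chr5:30155163-30155247: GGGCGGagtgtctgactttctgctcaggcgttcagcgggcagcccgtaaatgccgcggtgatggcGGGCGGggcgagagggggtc
Mlycd, chr8:119394644-119394877: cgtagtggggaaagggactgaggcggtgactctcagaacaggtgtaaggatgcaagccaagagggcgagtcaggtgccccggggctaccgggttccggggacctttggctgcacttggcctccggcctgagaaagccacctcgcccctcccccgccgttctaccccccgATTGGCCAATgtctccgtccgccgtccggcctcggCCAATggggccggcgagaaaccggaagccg
The Hadhb stretch is the whole gap between 2 genes that point away from each other: Hadha and Hadhb encode the alpha and beta subunits of the mitochondrial trifunctional protein, and their RefSeq starts are 272 bases apart. The Mlycd stretch ends where the annotated transcript begins and holds 2 of its 3 CCAAT matches side by side.

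On the BCAA-free diet, most of these genes had TAC effects close to 0. Cd36 and Lpl, which act at the entry of fatty acids from the blood, fell after TAC, and Mlycd, which encodes malonyl-CoA decarboxylase, rose. Of the 34 genes, 1 was called higher, where 3.34% of all tested genes were, and 2 were called lower, where 2.89% were (limma, Benjamini-Hochberg adjusted p under 0.05). With so few called, these counts do not stand apart from the shares of all genes. Their median log2 fold change was 0.036, beside 0.0014 for all 15670 genes tested. The members spread from -0.50 to 0.33. The authors' deposited table lists 1 of the 34 higher, where it lists 4.76% of all genes so, and 3 lower, where it lists 4.43% so. All 3 calls ended with GC content and length trends removed, a fit in which 0.544% of all genes were called; the values were then -0.15 for Cd36 (adjusted p = 0.33), -0.29 for Lpl (adjusted p = 0.0719) and 0.098 for Mlycd (adjusted p = 0.664, limma). They also ended with edgeR on all 12 libraries, which called 0.408% of all genes and gave -0.31, -0.42 and 0.33 (adjusted p = 0.106 to 0.171).

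Cd36, the fatty acid translocase of the cell membrane (chromosome 5, 17781690 to 17888801, GRCm38), had 44705, 40699 and 39564 in the BCAA-free TAC libraries, against 53231, 49435 and 53033 in the BCAA-free sham libraries. All 3 TAC libraries lay below all 3 sham libraries, and the log2 fold change was -0.32 ± 0.073, adjusted p = 0.0297. Lpl, lipoprotein lipase (chromosome 8, 68880491 to 68907448), had 143704, 145872 and 135716 in the BCAA-free TAC libraries, against 188514, 185383 and 196762 in the BCAA-free sham libraries. The groups did not overlap here either, and Lpl fell with a log2 fold change of -0.42 ± 0.068, adjusted p = 0.0098. Mlycd (chromosome 8, 119394878 to 119411102) had 5679, 5732 and 4992 in the BCAA-free TAC libraries, against 4677, 4184 and 4202 in the BCAA-free sham libraries. Each TAC library was above each sham library, and Mlycd rose by 0.33 ± 0.08, adjusted p = 0.0369 on the log2 scale. The call on Lpl was lost without BCAA-free TAC replicate 3, that on Cd36 without BCAA-free TAC replicate 2 or 3 or BCAA-free sham replicate 1 or 2, and that on Mlycd without any single one of the 6 libraries. The number of members called without 1 library was accordingly 0 to 2: 0 without BCAA-free TAC replicate 3, 1 without BCAA-free TAC replicate 2, and 1 without BCAA-free sham replicate 1 or 2. Of all genes 0.306%, 2.43%, 0.893% and 0.689% were called in these fits, in that order.

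The largest change in size without a call was that of Acot1, which encodes a cytosolic thioesterase that releases free fatty acid from acyl-CoA. Acot1 had 857, 874 and 641 in the BCAA-free TAC libraries, against 1087, 883 and 1431 in the BCAA-free sham libraries. All 3 TAC libraries were lower, with a log2 fold change of -0.50 ± 0.19, adjusted p = 0.154. Its near copy Acot2, the mitochondrial enzyme, had 3586, 3937 and 2870.0 in the BCAA-free TAC libraries, against 3804, 3522 and 3753 in the BCAA-free sham libraries. The Acot2 groups overlapped (-0.10 ± 0.10, adjusted p = 0.587). Transcripts of Acot1 and Acot2 were 94.3% identical over 1330 aligned bases, so how the counting split reads between them is uncertain for both. Fabp3 had 97955, 82098 and 85162 in the BCAA-free TAC libraries, against 78194, 68260.3 and 79084 in the BCAA-free sham libraries. It lay higher in every TAC library but did not pass (0.23 ± 0.086, adjusted p = 0.121). Ucp3, a mitochondrial carrier of the uncoupling protein family, had the largest SE of the 34, and it had 4674, 6551 and 3140.4 in the BCAA-free TAC libraries, against 4754, 4558 and 2469 in the BCAA-free sham libraries. Replicate 3 was the lowest of its group in both groups, which overlapped (0.28 ± 0.41, adjusted p = 0.736).

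The enzymes of the oxidation spiral itself were within a narrow band on this diet. The 4 acyl-CoA dehydrogenases Acadvl, Acadl, Acadm and Acads, which act on chains from very long to short, had log2 fold changes of -0.023 to 0.14. Acadm, for example, had 45365, 41277 and 43446 in the BCAA-free TAC libraries, against 40713, 43226 and 41994 in the BCAA-free sham libraries. The 5 genes of the hydratase, hydroxyacyl dehydrogenase and thiolase steps lay between -0.11 and 0.068, the 4 auxiliary enzymes of unsaturated chains between 0.028 and 0.11, and the 3 electron transfer genes between -0.093 and 0.0032. Hadha had 63716, 58370.2 and 60120.1 in the BCAA-free TAC libraries, against 58934, 60791 and 66596 in the BCAA-free sham libraries, and the groups overlapped. Of the 6 carnitine genes 0 were called by limma, and 0 had an unadjusted p under 0.05, beside 3841 of all 15670 genes tested. All 6 overlapped between the groups. Most genes did so here: 14.6% of all genes were higher and 15% lower in every TAC library. Among the carnitine genes Cpt1b had 6665, 6591 and 6254 in the BCAA-free TAC libraries, against 6669, 6529 and 7719 in the BCAA-free sham libraries. Acsl1 also overlapped, with 31147, 33256 and 30633 in the BCAA-free TAC libraries, against 32795, 35609 and 33595 in the BCAA-free sham libraries.

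**Figure D1:**
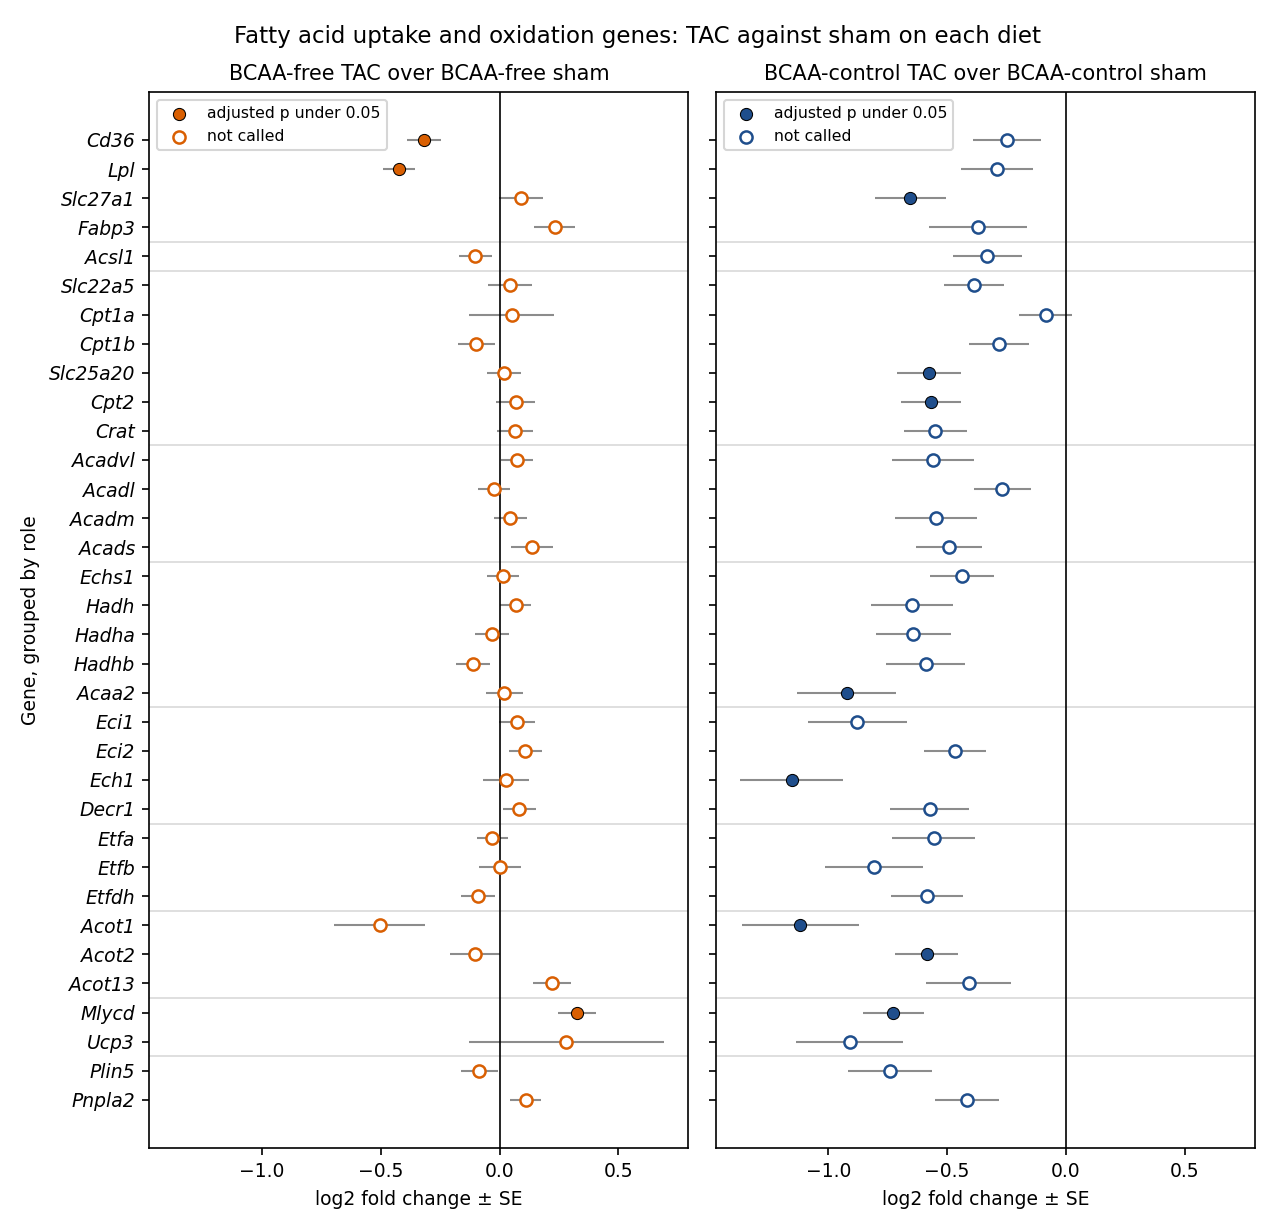
Log2 fold change (horizontal axis, ± SE) of each of the 34 genes (vertical axis, grouped by role) for TAC over sham on the BCAA-free diet (left) and on the BCAA-control diet (right), from limma on 3 libraries per group; filled points have an adjusted p under 0.05. On the BCAA-free diet the points lie around 0 with 3 called, and on the BCAA-control diet all 34 lie left of 0 with 8 called.

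On the BCAA-control diet, all 34 genes had lower means after TAC, and 8 were called lower and 0 higher, where 1.09% of all tested genes were called lower and 2.95% higher. The 8 that fell were Slc27a1, a fatty acid transport protein; Slc25a20 and Cpt2, the translocase and the inner transferase of the carnitine shuttle; the thiolase Acaa2; Ech1; the thioesterases Acot1 and Acot2; and Mlycd. The median log2 fold change of the 34 was -0.56, beside -0.0047 for all 15397 genes tested, and the range was -1.15 to -0.086. For 33 of the 34, each TAC library was below each sham library, as for 17.4% of all tested genes; the exception was Cpt1a. The unadjusted p was under 0.05 for 28 of the 34 and for 4343 of all 15397 genes tested. Those of the 28 without a call had adjusted p-values of 0.0516 to 0.173 (limma).

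Mlycd had 2731, 2035 and 2471 in the BCAA-control TAC libraries, against 3650.0, 4113 and 4143 in the BCAA-control sham libraries. The TAC libraries were all lower, and Mlycd fell with a log2 fold change of -0.73 ± 0.13, adjusted p = 0.0397, the smallest adjusted p of the 34 together with Ech1. Ech1 (chromosome 7, 28825217 to 28832247), which shifts double bonds of unsaturated acyl chains, had 20704, 12365 and 19381 in the BCAA-control TAC libraries, against 32607, 35958 and 46665 in the BCAA-control sham libraries. Its TAC mean was 0.455 of the sham mean, and the log2 fold change was -1.15 ± 0.22, adjusted p = 0.0397, the furthest from 0 of the 34. Acaa2, the thiolase of the last step of each round (chromosome 18, 74779197 to 74806208), had 16373, 9514 and 14984 in the BCAA-control TAC libraries, against 22528, 24091 and 29326 in the BCAA-control sham libraries. The groups were apart, at -0.92 ± 0.21, adjusted p = 0.0468 on the log2 scale.

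In the carnitine shuttle, Cpt2 (chromosome 4, 107903981 to 107923610) had 4476, 3431 and 4370.4 in the BCAA-control TAC libraries, against 5824, 6103 and 6152 in the BCAA-control sham libraries. TAC replicate 2 was the lowest, and the groups did not overlap (-0.57 ± 0.13, adjusted p = 0.0462). Slc25a20 fell by a similar amount (-0.58 ± 0.13, adjusted p = 0.0494), while Crat, carnitine acetyltransferase, missed the threshold (-0.55 ± 0.13, adjusted p = 0.0528). Cpt1b had 4691, 3853 and 4741 in the BCAA-control TAC libraries, against 5659, 4801 and 5681 in the BCAA-control sham libraries. These were also apart, but the change was smaller and not called (-0.28 ± 0.13, adjusted p = 0.18); 81.4% of the exon bases of Cpt1b are shared with the same-strand model gene Gm44502, which limits how its reads could be assigned. Cpt1a was the member nearest to 0 (-0.086 ± 0.11, adjusted p = 0.649), with TAC libraries between 1593 and 1999.6 and sham libraries between 1871 and 2004.

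At the uptake step, Slc27a1 (chromosome 8, 71568882 to 71587302) had 5317, 4006 and 4222 in the BCAA-control TAC libraries, against 6269, 8224 and 6812 in the BCAA-control sham libraries. Slc27a1 fell with a log2 fold change of -0.66 ± 0.15, adjusted p = 0.0471. Cd36 and Lpl, which had fallen on the BCAA-free diet, were not called here. Cd36 had 35175, 26704 and 35099 in the BCAA-control TAC libraries, against 38796, 37339.8 and 38119.6 in the BCAA-control sham libraries. Lpl had 101960, 77578 and 101026 in the BCAA-control TAC libraries, against 116296, 119095 and 105324 in the BCAA-control sham libraries. Both genes were lower in every TAC library, with TAC replicate 2 well under the other TAC libraries, at -0.25 ± 0.14 (adjusted p = 0.287) and -0.29 ± 0.15 (adjusted p = 0.247). Fabp3 had 68728, 63503 and 68939.9 in the BCAA-control TAC libraries, against 73329.7, 72162 and 122999 in the BCAA-control sham libraries. Sham replicate 3 was far above the rest, and the change was not called (-0.37 ± 0.21, adjusted p = 0.274). Acsl1, the main synthetase that activates long-chain acids in heart, had 28447, 20398 and 25289.9 in the BCAA-control TAC libraries, against 31525, 30070.5 and 30758 in the BCAA-control sham libraries. It was lower in each TAC library but not called (-0.33 ± 0.14, adjusted p = 0.173).

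Of the thioesterases, Acot1 (chromosome 12, 84009490 to 84018371) had 455, 229.5 and 442 in the BCAA-control TAC libraries, against 685, 862 and 802 in the BCAA-control sham libraries. Its TAC mean was 0.48 of the sham mean (-1.12 ± 0.25, adjusted p = 0.0462). Acot2 had 2175, 1551 and 1869.8 in the BCAA-control TAC libraries, against 2595, 2856 and 2879.8 in the BCAA-control sham libraries. Both thioesterases fell, Acot2 by less (-0.59 ± 0.13, adjusted p = 0.047), with the uncertainty of their shared sequence. Ucp3 had 2188, 1100.3 and 1418 in the BCAA-control TAC libraries, against 3007, 2434 and 3090.3 in the BCAA-control sham libraries. Its groups did not overlap, the TAC libraries were spread widely, and it missed the threshold (-0.91 ± 0.23, adjusted p = 0.0557).

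The core enzymes of the spiral had lower values in every TAC library, and of them Acaa2 alone was called. Acadm had 30876, 20688 and 28111 in the BCAA-control TAC libraries, against 34257, 38418 and 42557 in the BCAA-control sham libraries. Hadha had 41566, 29108 and 39078 in the BCAA-control TAC libraries, against 52769.8, 57512 and 59174 in the BCAA-control sham libraries. Neither overlapped between the groups, at -0.55 ± 0.17, adjusted p = 0.0837 for Acadm and -0.64 ± 0.16, adjusted p = 0.055 for Hadha. The 4 acyl-CoA dehydrogenases had a median of -0.52, the 5 genes of hydration to thiolysis -0.64, the 4 auxiliary enzymes -0.73 and the 3 electron transfer genes -0.59. On the lipid droplet, its coat protein gene Plin5 was at -0.74 ± 0.18, adjusted p = 0.0516, and Pnpla2, adipose triglyceride lipase, at -0.42 ± 0.13, adjusted p = 0.0886. Etfb shares 53% of its exon bases with the model gene Gm45233 on the same strand, which counting by strand would not separate. Acadvl shares 42.9% with Dvl2 on the other strand, and the sources used here do not give whether reads were counted by strand.

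**Figure D2:**
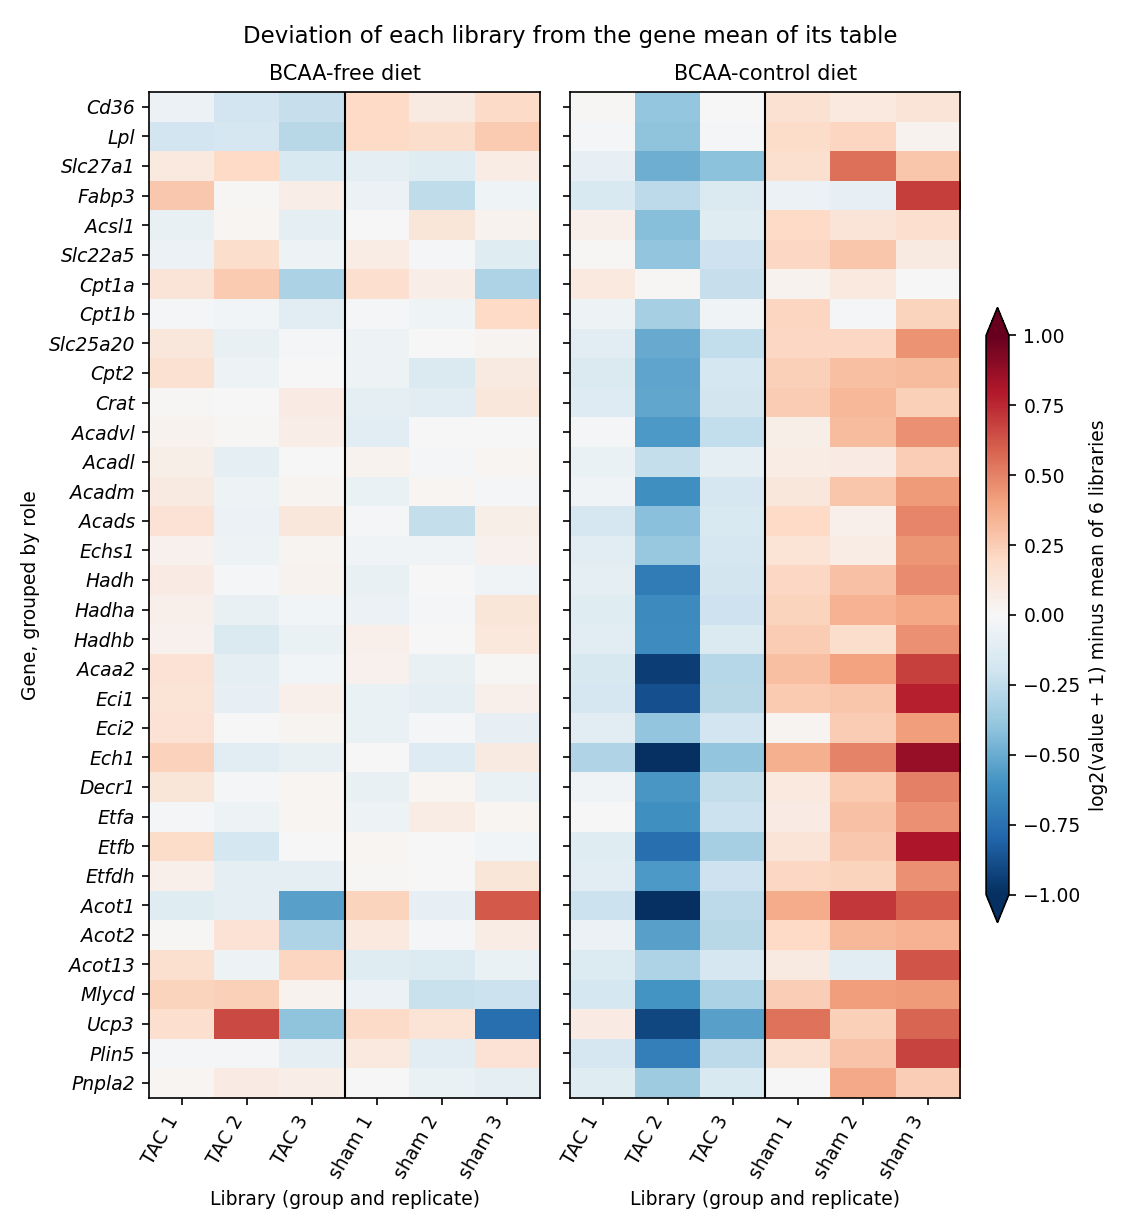
Each cell is 1 gene (vertical axis, grouped by role) in 1 library (horizontal axis), coloured by log2(value + 1) minus the mean of the 6 libraries of its table; colours end at -1 and 1. On the BCAA-control diet the TAC columns are low and the sham columns high, with TAC replicate 2 the lowest for 33 of 34 genes and sham replicate 3 the highest for 25; on the BCAA-free diet no column stands apart for most genes.

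Single libraries stood apart in this comparison. BCAA-control TAC replicate 2 held the lowest of the 6 values for 33 of the 34 genes, and BCAA-control sham replicate 3 the highest for 25. Taken as the median deviation of the 34 genes from their 6-library means on the log2 scale, the BCAA-control TAC libraries stood at -0.11, -0.54 and -0.20, against 0.20, 0.28 and 0.44 in the BCAA-control sham libraries. The 34 genes made up 2.01%, 1.61% and 1.93% of all listed values in the BCAA-control TAC libraries, against 2.23%, 2.29% and 2.51% in the BCAA-control sham libraries. With 1 library left out the median stayed between -0.67 and -0.42, but the number called was 0 without BCAA-control TAC replicate 3 or without any 1 of the 3 BCAA-control sham libraries, 2 without BCAA-control TAC replicate 2 and 17 without BCAA-control TAC replicate 1. Calls among all genes moved with these counts: 0% to 0.636% of all genes were called in the 4 fits with 0 members, 1.27% in the fit with 2 and 6.89% in the fit with 17. In the 4 fits with 0 members called, 26 or 27 members had an unadjusted p under 0.05. With all 6 libraries that held for 28 members and for 4343 of all 15397 genes tested. DESeq2 on the recovered reads called 25 lower, with 14.3% of all genes called in either direction, and the authors' deposited table also lists 25 lower at its adjusted p, where that table lists 5.91% of all genes lower and 8.33% higher, while edgeR called 3 on the 6 libraries, with 3.57% of all genes, and 26 on all 12 libraries, with 20% of all genes.

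Markers of other cells and of the muscle cells themselves moved in the same comparison, and their part in the result was not tested. In bulk tissue, fewer cells of a type and less RNA per cell cannot be told apart. The labels name no chamber, and 4 atrial markers, Sln, Myl7, Myl4 and Nppa, were read too. After TAC on the BCAA-control diet 1 was positive and 3 were negative, with a median log2 fold change of -0.17. On the BCAA-free diet all 4 were positive, with a median of 1.11. By limma 0 of the 4 were called on either diet, and their part was not tested. The 10 cardiomyocyte markers summed to 1998672 to 2461880 in BCAA-control TAC libraries, against 2755087 to 2891797 in BCAA-control sham libraries. Their median log2 fold change was -0.41, and 1 of 10 was called lower, beside 1.09% of all genes. The 8 fibroblast markers summed to 50731 to 134732 in BCAA-control TAC libraries, against 23777 to 27196 in BCAA-control sham libraries. Of these, 5 of 8 were called higher, beside 2.95% of all genes. By library, the cardiomyocyte markers deviated by -0.088, -0.39 and -0.11 in BCAA-control TAC libraries, against 0.18, 0.19 and 0.34 in BCAA-control sham libraries, so the libraries with low fatty acid genes were also those with low cardiomyocyte markers. With each library scaled to the cardiomyocyte markers, an alternative chosen after the data were seen, the median of the 34 genes was -0.13, that of all genes 0.43, and 4 members were called lower: Ech1 (-0.72), Acot1 (-0.69), Acaa2 (-0.49) and Eci1 (-0.45). In that fit 0.467% of all genes were called lower and 35.4% higher, and 10 of the 34, Cd36, Lpl, Fabp3 and Cpt1b among them, had a positive sign without a call. On the BCAA-free diet the cardiomyocyte markers summed to 3483248 to 3647165 in TAC libraries, against 3200679 to 3471843 in sham libraries. The markers were mixed there: 7 were positive and 3 negative, from -0.27 to 0.36, with a median log2 fold change of 0.075. Without overlap between the groups, 4 were higher and 3 lower after TAC, beside 14.6% and 15% of all genes. Under the scaling to these markers Cd36 (-0.40) and Lpl (-0.51) remained called lower on this diet. Mlycd was not called, and the median of the 34 changed sign, to -0.045.

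**Figure D3:**
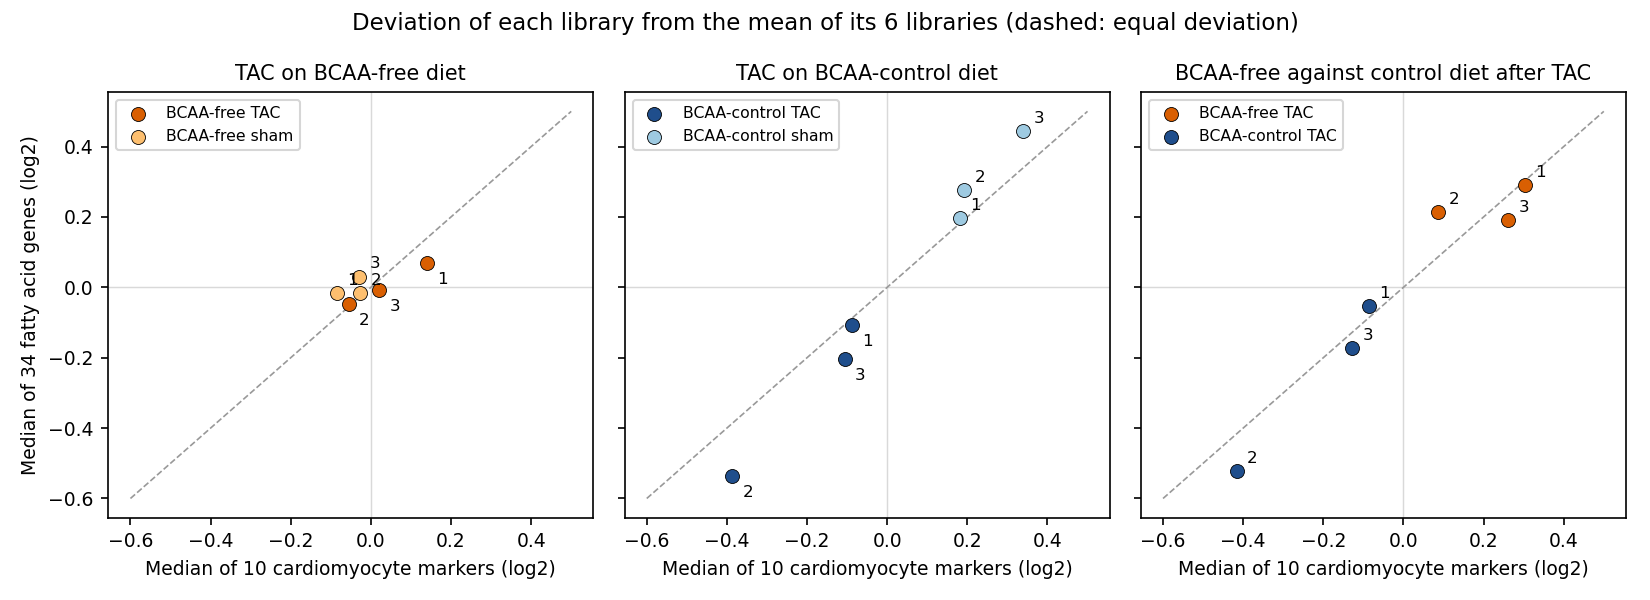
Median log2 deviation of the 34 fatty acid genes (vertical axis) against that of 10 cardiomyocyte markers (horizontal axis) in each library, from the mean of the 6 libraries of its table, for 3 comparisons; numbers are replicates and the dashed line marks equal deviation. In the 2 comparisons that hold the BCAA-control TAC libraries, these lie at the lower left, with replicate 2 lowest on both axes, and on the BCAA-free diet all 6 libraries lie within 0.14 of 0.

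The TAC effects on both diets were set against each other by the interaction of diet and surgery, over 15195 genes. Of the 34 genes, 14 were called, all with a more positive TAC effect on the BCAA-free diet, where 4.92% of all genes were, and 0 with a more negative one, where 3.73% were. The median difference was 0.61, beside -0.03 for all genes. The interaction uses the same 12 libraries as both TAC comparisons and adds no sample to them. With GC content and length trends removed 11 members were called, with 4.24% of all genes, and 6 of the 14 were no longer called: Slc27a1, Cpt2, Acads, Acaa2, Eci1 and Pnpla2.

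Mlycd was the only member called in both TAC comparisons, higher on the BCAA-free diet and lower on the BCAA-control diet, and its TAC effects differed by 1.05 ± 0.16, adjusted p = 0.00587. This was the only one of the 14 that stayed called in all 12 fits with 1 library left out. Ech1 differed by 1.18 ± 0.26, adjusted p = 0.0204, and the other 3 auxiliary enzymes of unsaturated chains, Eci1, Eci2 and Decr1, were called too, at 0.58 to 0.95. In the shuttle Slc25a20, Crat and Cpt2 differed by 0.59 to 0.64, and at uptake Slc27a1 did by 0.75 ± 0.19, adjusted p = 0.0298. The other 5 called were Acads, Hadh, Hadha, Acaa2 and Pnpla2, between 0.53 and 0.94. Ucp3 had the largest difference of all, 1.19 ± 0.48, adjusted p = 0.138, and it was not called.

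Cd36 and Lpl were the 2 members whose TAC effects differed in the negative direction, and neither was called: -0.07 ± 0.16, adjusted p = 0.804 for Cd36 and -0.13 ± 0.16, adjusted p = 0.615 for Lpl. Under the scaling to cardiomyocyte markers both differences were called, at -0.65 and -0.71, Ech1 (0.61) and Mlycd (0.48) were still called higher, 43% of all genes were called lower and 0.355% higher, 12 of the 34 changed sign, and the median over the 34 was 0.03 where that of all genes was -0.60. Under library totals alone 7 members were called, with 12.2% of all genes, and the median was 0.44, beside -0.2 for all genes. With 1 library left out the number called was 1 without BCAA-free TAC replicate 1 or without BCAA-free sham replicate 1 or 2, 2 without BCAA-free TAC replicate 3, 6 without BCAA-free TAC replicate 2, 7 without BCAA-control TAC replicate 2 or 3, 9 without BCAA-free sham replicate 3 or BCAA-control sham replicate 3, and 22 without BCAA-control TAC replicate 1. Calls among all genes moved with these counts. They were 1.83% to 2.88% of all genes in the fits with 1 member and 1.42% in the fit with 2. The fits with 6 or 7 members had 4.17% to 4.55%, those with 9 had 6.61% and 8.06%, and that with 22 had 11.4%.

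**Figure D4:**
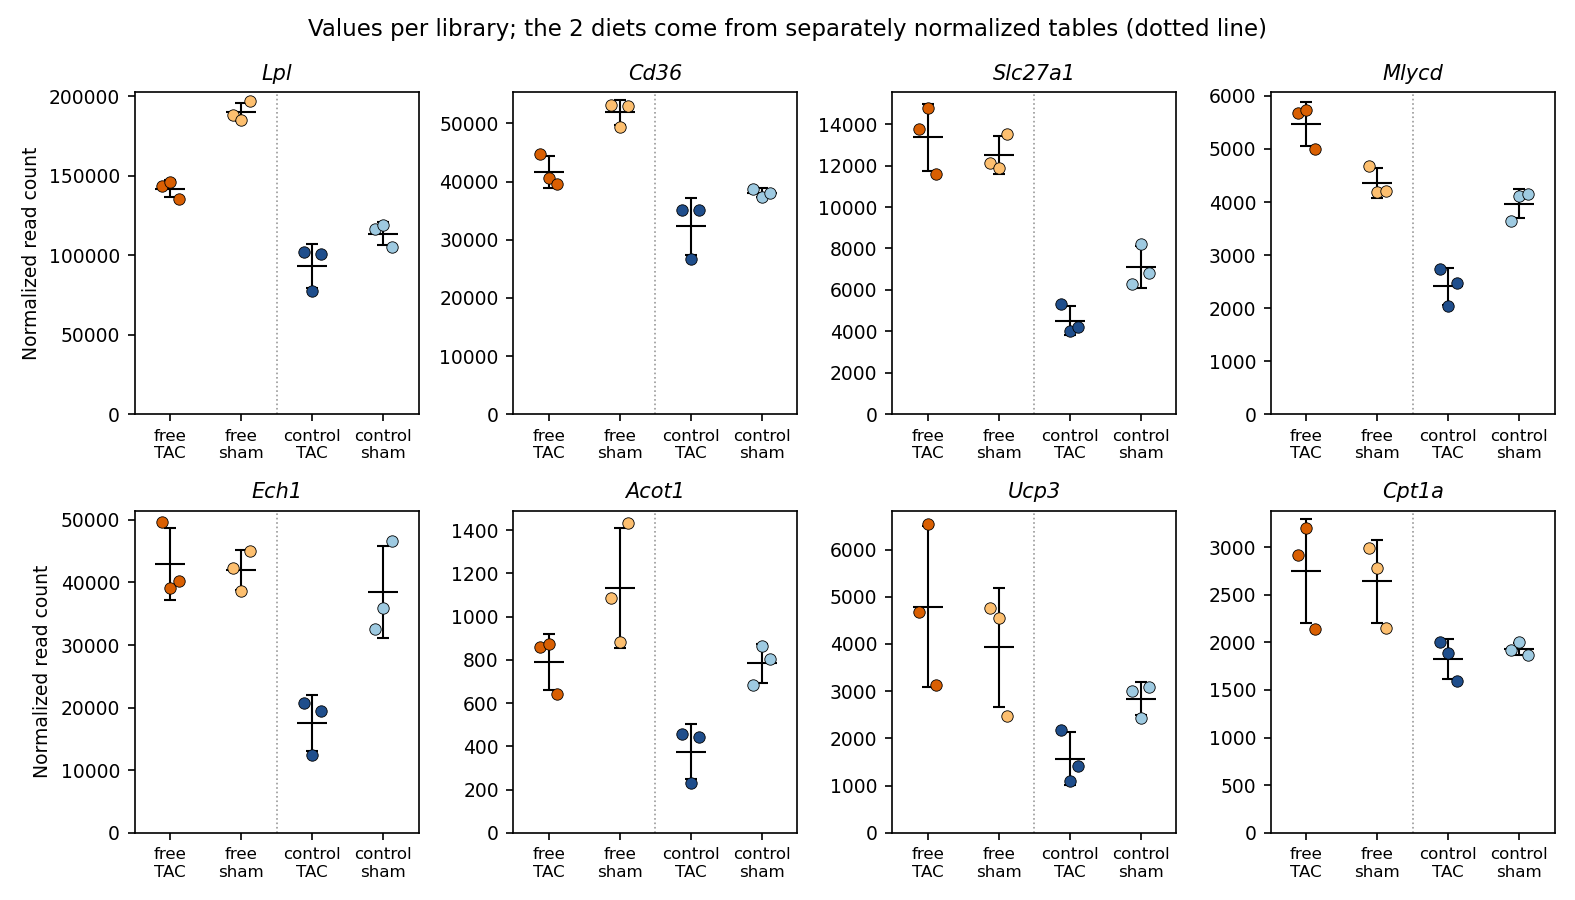
Normalized read counts (vertical axes from 0) of 8 of the genes in each library; points are libraries, and bars mark the mean ± SD of 3. Values left and right of the dotted line come from tables normalized separately and are not to be compared across it. Lpl and Cd36 are lower after TAC on both diets, Mlycd is higher after TAC on the BCAA-free diet and lower on the BCAA-control diet, and Ech1 is lower after TAC on the BCAA-control diet, with overlapping groups on the BCAA-free diet.

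After TAC, the BCAA-free diet went with higher values of most of the pathway than the control diet. Of the 34 genes 27 were called higher and 0 lower, in a comparison in which 16.5% of all tested genes were called higher and 17.7% lower. The median log2 fold change was 0.47, beside 0.00026 for all 15872 genes, and for 31 of 34 each BCAA-free TAC library was above each BCAA-control TAC library, as for 25.2% of all genes. Replicate 2 of the BCAA-control TAC group was again the lowest of 6 for 33 of 34 genes. All 8 genes called lower after TAC on the control diet are among the 27, and both comparisons share the BCAA-control TAC libraries. The authors' deposited table lists 28 of the 34 higher and 0 lower, where it lists 16.6% of all genes higher and 18.4% lower.

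Among the uptake genes, Slc27a1 had 14261, 15322 and 12003 in the BCAA-free TAC libraries, against 6507, 4869 and 5143 in the BCAA-control TAC libraries. The BCAA-free mean was 2.52 times the control mean, the log2 fold change was 1.34 ± 0.13, adjusted p = 0.000628, and the groups were far apart. Lpl had 148907, 151450 and 140693 in the BCAA-free TAC libraries, against 124779, 94289 and 123046 in the BCAA-control TAC libraries. Lpl rose by less (0.38 ± 0.13, adjusted p = 0.0476), and its sign turned under the scaling to cardiomyocyte markers (-0.0501). Cd36 had 46324, 42256 and 41015 in the BCAA-free TAC libraries, against 43047, 32457 and 42749.6 in the BCAA-control TAC libraries. Fabp3 had 101502, 85238 and 88285 in the BCAA-free TAC libraries, against 84109, 77183 and 83966 in the BCAA-control TAC libraries. Neither was called (0.14 ± 0.13, adjusted p = 0.407 for Cd36 and 0.16 ± 0.11, adjusted p = 0.262 for Fabp3), and Cd36 overlapped between the diets. Acsl1 had 32275, 34528 and 31756 in the BCAA-free TAC libraries, against 34813, 24792 and 30802 in the BCAA-control TAC libraries. Acsl1 overlapped as well (0.14 ± 0.13, adjusted p = 0.425).

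Ucp3 had the largest change. Ucp3 (chromosome 7, 100472990 to 100486432) had 4843, 6801 and 3256 in the BCAA-free TAC libraries, against 2677, 1337 and 1727 in the BCAA-control TAC libraries. All BCAA-free libraries were higher than all control libraries, with a wide spread within both groups (1.37 ± 0.35, adjusted p = 0.0286). Mlycd had 5885, 5951 and 5176 in the BCAA-free TAC libraries, against 3342, 2473 and 3009.7 in the BCAA-control TAC libraries. The diets did not overlap, and Mlycd rose with 0.95 ± 0.12, adjusted p = 0.00115. Pnpla2 (chromosome 7, 141455198 to 141460743), the lipase that opens the triglyceride droplet, had 17615, 18451 and 18198 in the BCAA-free TAC libraries, against 11460.4, 9725 and 11214 in the BCAA-control TAC libraries. The libraries of each diet lay close together, and Pnpla2 rose (0.75 ± 0.091, adjusted p = 0.00117), and the droplet coat gene Plin5 rose too (0.48 ± 0.13, adjusted p = 0.0201).

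Within the mitochondrion, Ech1 had 51433, 40572 and 41676 in the BCAA-free TAC libraries, against 25337, 15029 and 23606 in the BCAA-control TAC libraries. Its BCAA-free mean was 2.09 times the control mean (1.09 ± 0.20, adjusted p = 0.00531). Etfb, the beta subunit of the flavoprotein that takes electrons from the acyl-CoA dehydrogenases, had 5514, 4308 and 4862 in the BCAA-free TAC libraries, against 3297, 2114 and 2845 in the BCAA-control TAC libraries. Etfb rose (0.85 ± 0.16, adjusted p = 0.00668), as did its partners Etfa (0.59 ± 0.14) and Etfdh (0.42 ± 0.13). The exon bases that Etfb shares with Gm45233 limit how its reads could be assigned. Crat, which moves acetyl groups between CoA and carnitine, had 20166, 20122 and 21211 in the BCAA-free TAC libraries, against 15496, 11769 and 14868 in the BCAA-control TAC libraries. Crat rose (0.56 ± 0.11, adjusted p = 0.00698) together with Cpt1b, Slc25a20 and Cpt2 (0.33 to 0.46).

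Acadm had 47008, 42856 and 45039 in the BCAA-free TAC libraries, against 37785, 25144 and 34238 in the BCAA-control TAC libraries. Hadha had 66024, 60602 and 62325 in the BCAA-free TAC libraries, against 50868, 35378 and 47596 in the BCAA-control TAC libraries. Both rose (0.49 ± 0.14, adjusted p = 0.0286 for Acadm and 0.51 ± 0.14, adjusted p = 0.0203 for Hadha), and Hadhb, which shares its promoter gap, was higher in each library but not called (0.33 ± 0.14, adjusted p = 0.105). All 4 auxiliary enzymes, all 3 electron transfer genes and all 3 thioesterases were called higher, with Acot1 at 0.89 ± 0.28 and Acot2 at 0.66 ± 0.15. The 7 not called were Cd36, Fabp3, Acsl1, Slc22a5, Cpt1a, Acads and Hadhb.

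With 1 library left out 11 to 28 genes were called, 11, 15 and 14 of them without BCAA-free TAC replicate 1, 2 or 3 and 18 without BCAA-control TAC replicate 3. Of all genes 22.1%, 22.6%, 21.2% and 23.1% were called in these fits, in that order, against 34.2% with all libraries. Mlycd, Slc27a1, Ech1, Pnpla2, Crat, Etfb, Echs1, Eci2, Acot2 and Acot13, 10 genes, were called in all 6 fits with 1 library left out. The 10 cardiomyocyte markers summed to 3616448 to 3779228 in BCAA-free TAC libraries, against 2429224 to 3012839 in BCAA-control TAC libraries, with a median log2 fold change of 0.47. Of the 10, 7 were called higher and 1 lower, beside 16.5% and 17.7% of all genes. The fibroblast markers summed to 26101 to 34240 in BCAA-free TAC libraries, against 62084 to 163756 in BCAA-control TAC libraries. Of them 7 of 8 were called lower, as were 8 of 8 macrophage markers, beside 17.7% of all genes. The part of these shifts in the result was not tested. Scaled to the cardiomyocyte markers, the members' median was 0.041, that of all genes -0.43, and 6 genes were called higher: Slc27a1 (0.91), Ech1 (0.66), Mlycd (0.53), Etfb (0.42), Acaa2 (0.38) and Pnpla2 (0.32), where 2.19% of all genes were called higher and 41.8% lower. Cd36 (-0.29) and Fabp3 (-0.27) were then called lower, and Lpl, Cpt1b, Slc25a20, Acadl, Etfdh and Acot13, which had been called higher, had values of -0.14 to -0.005 and were not called. In all, 13 of the 34 changed sign under this scaling. The BCAA-free TAC libraries also differed in base composition. For each library, log2 deviations from the gene means of all 12 libraries were correlated with transcript GC content across genes. Spearman was 0.2, 0.403 and 0.391 in the BCAA-free TAC libraries, against -0.108, -0.0187 and -0.164 in the BCAA-control TAC libraries. With transcript length, the correlations were -0.302, -0.116 and -0.355 in the BCAA-free TAC libraries, against 0.23, 0.162 and 0.244 in the BCAA-control TAC libraries. With both trends removed, 26 of the 34 were called higher, with 29.6% of all genes called in either direction. The calls on Plin5, Acadvl, Eci1 and Cpt1b were then lost.

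**Figure D5:**
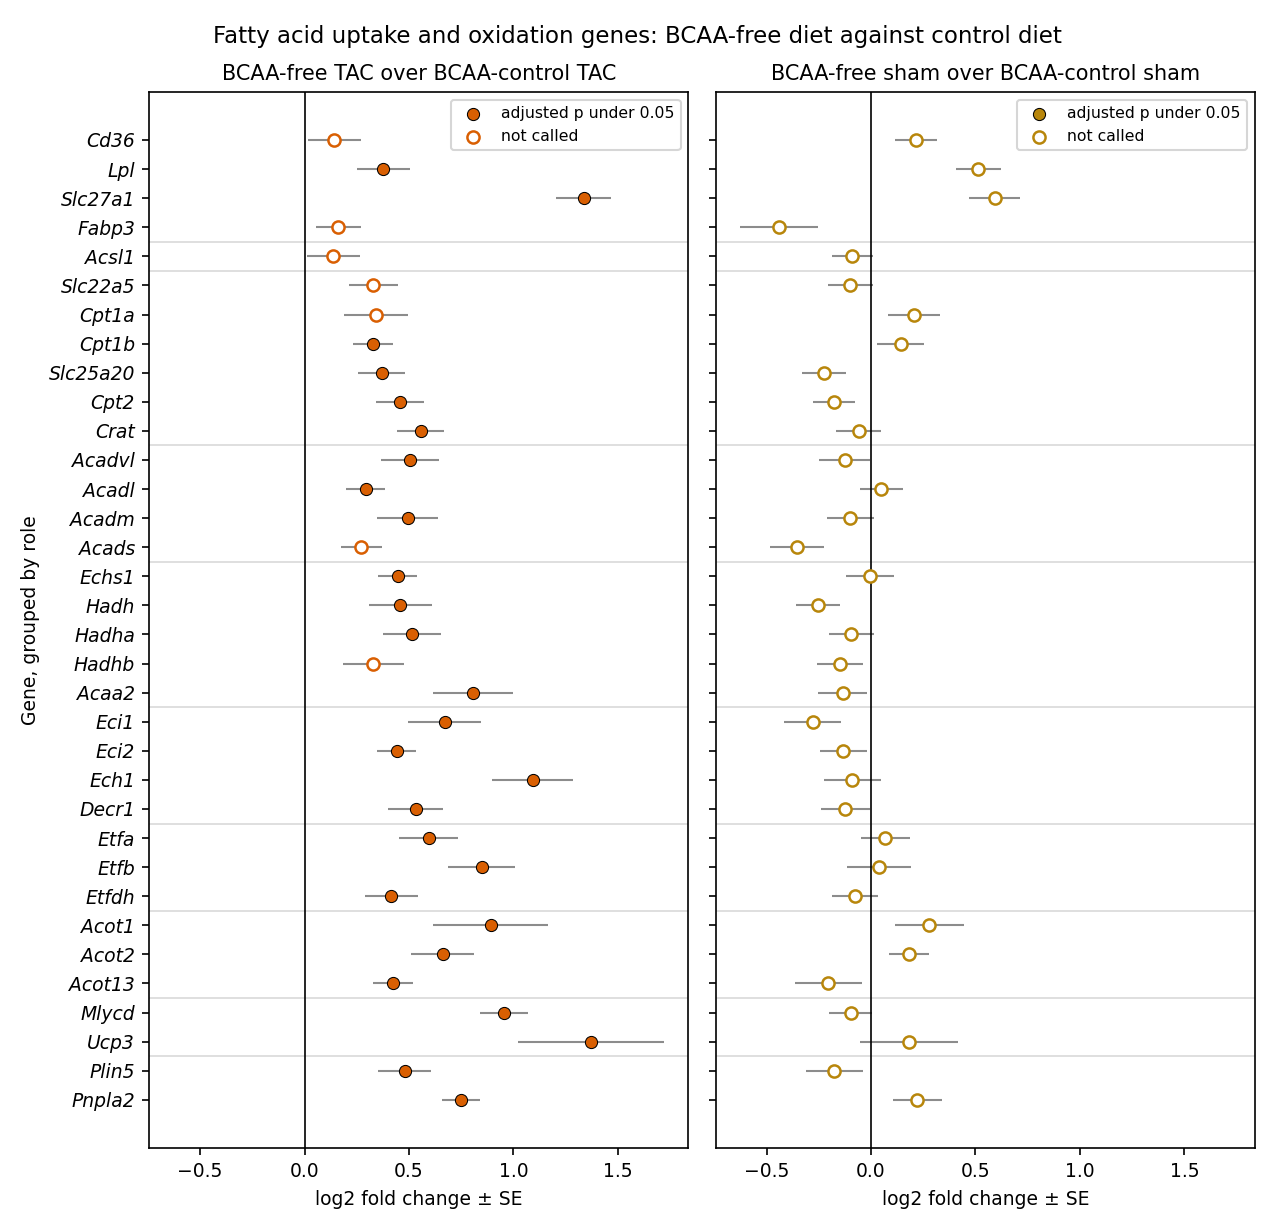
Log2 fold change (horizontal axis, ± SE) of each of the 34 genes (vertical axis, grouped by role) for the BCAA-free over the BCAA-control diet, after TAC (left) and after sham surgery (right), from limma on 3 libraries per group; filled points have an adjusted p under 0.05. After TAC all 34 lie right of 0 with 27 called, and after sham none is called, with Slc27a1 and Lpl furthest to the right.

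Without pressure overload the diet left no member past the threshold. By limma 0 of 34 were called, where 0.25% of all tested genes were called higher and 0.375% lower. An unadjusted p under 0.05 was found for 5 of the 34 and for 2525 of all 15217 genes tested, a similar share. The median log2 fold change was -0.092, and 0.056 under the scaling to cardiomyocyte markers, whose own median here was -0.24. Slc27a1 had 9961, 9740.0 and 11127 in the BCAA-free sham libraries, against 6058, 7967 and 6523 in the BCAA-control sham libraries. Lpl had 154815, 152200 and 161650 in the BCAA-free sham libraries, against 112387, 115369 and 100848 in the BCAA-control sham libraries. Both were higher in every BCAA-free library and missed the threshold narrowly (0.59 ± 0.12, adjusted p = 0.0536 for Slc27a1 and 0.51 ± 0.11, adjusted p = 0.056 for Lpl). DESeq2, edgeR on 12 libraries, library totals alone and the removal of GC content and length trends each called 2 members higher. Of all genes these fits called 3.5%, 2.12%, 0.637% and 2.46%, in that order. Leaving out BCAA-control sham replicate 2 or 3 gave 1 and 2, with 1.39% and 3.12% of all genes, against 0 for the other 4 libraries. The authors' deposited table also lists 2 higher, where it lists 1.65% of all genes higher and 1.79% lower.

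Cd36 had 43715, 40586 and 43569 in the BCAA-free sham libraries, against 37492, 36171 and 36499 in the BCAA-control sham libraries. The groups were apart, at 0.21 ± 0.10, adjusted p = 0.315. Fabp3 had 64216, 56042 and 64972 in the BCAA-free sham libraries, against 70864, 69904 and 117772 in the BCAA-control sham libraries. It was lower in all BCAA-free libraries, with BCAA-control sham replicate 3 far above the other control libraries (-0.44 ± 0.19, adjusted p = 0.271). Ech1 had 34706, 31706 and 37045 in the BCAA-free sham libraries, against 31510.5, 34833 and 44682 in the BCAA-control sham libraries. Ech1 overlapped (-0.089 ± 0.14, adjusted p = 0.787), and so did Mlycd (-0.097 ± 0.10, adjusted p = 0.678), Hadha (-0.095 ± 0.11, adjusted p = 0.701) and Ucp3 (0.18 ± 0.23, adjusted p = 0.742). Of the 34 genes 4 were higher and 6 lower in all BCAA-free libraries, beside 11.7% and 11.3% of all genes.

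Other genes of lipid handling were read from 4 lists. Among 22 tested genes of uptake, activation and mitochondrial oxidation beyond the 34, TAC on the BCAA-free diet raised 1, Gpihbp1, the endothelial anchor of lipoprotein lipase (0.43 ± 0.11, adjusted p = 0.044), and lowered 0. Of all genes 3.34% were called higher and 2.89% lower there. TAC on the BCAA-control diet moved 0 past the threshold by limma, beside 2.95% of all genes higher and 1.09% lower. The unadjusted p was under 0.05 for 14 of 22, beside 4343 of all 15397 genes tested. Dbi, an acyl-CoA binding protein, was nearest to a call (-0.59 ± 0.15, adjusted p = 0.0557). The BCAA-free diet after TAC raised 8 and lowered 5, where 16.5% of all genes were called higher and 17.7% lower, so the share that fell was near that of all genes. Of these Acot7, a thioesterase, rose (0.61 ± 0.091), as did Slc25a29 (0.79 ± 0.13), Acad10 (0.79 ± 0.14) and Hsd17b10 (0.64 ± 0.12). The 5 that fell, all named after their values were seen, were the synthetase genes Acsl3, Acsl4 and Acsl5, the binding protein gene Fabp5, and Pdk4, a kinase that holds back pyruvate oxidation (-0.63 to -0.37 on the log2 scale). Among 17 peroxisomal genes TAC on the BCAA-free diet moved 0 by limma. Of the 17, 0 had an unadjusted p under 0.05, beside 3841 of all 15670 genes tested. TAC on the BCAA-control diet lowered 1, beside 1.09% of all genes: Pex11a (-0.65 ± 0.14, adjusted p = 0.0451). With the BCAA-free diet after TAC 4 of the 17 rose, beside 16.5% of all genes, among them Acaa1a, Pex11a and Phyh (0.29 to 0.41).

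Among 13 genes of triglyceride storage and lipolysis TAC on the BCAA-free diet raised 1, the triglyceride synthase Dgat2 (0.29 ± 0.072, adjusted p = 0.0384), where 3.34% of all genes were called higher. TAC on the BCAA-control diet moved 0 by limma, beside 2.95% of all genes higher and 1.09% lower. Of the 13, 3 had an unadjusted p under 0.05, beside 4343 of all 15397 genes tested. The lipolysis inhibitor G0s2 was nearest to a call (-0.60 ± 0.15, adjusted p = 0.0554). The BCAA-free diet after TAC raised 5 and lowered 1, where 16.5% of all genes were called higher and 17.7% lower. Among the 5 was Lipe, hormone-sensitive lipase, which had 3284, 3431 and 2892 in the BCAA-free TAC libraries, against 2006, 1650.4 and 1937 in the BCAA-control TAC libraries. Lipe was apart between the diets (0.78 ± 0.10, adjusted p = 0.00136). The others named were Plin4 (0.81 ± 0.11), G0s2 (1.05 ± 0.18) and Dgat2 (1.05 ± 0.20), and 1 fell, the lipase activator Abhd5, named after its value was seen (-0.27 ± 0.078). After sham, Lipe was the 1 gene of all 4 lists that was called, with 2715, 2381 and 2357 in the BCAA-free sham libraries, against 1604, 1882 and 1512 in the BCAA-control sham libraries. It was higher in each BCAA-free library (0.58 ± 0.11, adjusted p = 0.0488), in a comparison in which 0.25% of all genes were called higher. Adipocyte markers summed to 1728 to 3055 in BCAA-free TAC libraries, against 1145 to 2517 in BCAA-control TAC libraries. Of 8, 1 was called higher, 7 were positive, and the median log2 fold change was 1.27. After sham 7 such markers summed to 1056 to 1976 in BCAA-free libraries, against 888.8 to 1462 in BCAA-control libraries. By limma 0 of these were called, 6 were positive, and the median was 1.01. Of the 7, 4 had an unadjusted p under 0.05, beside 2525 of all 15217 genes tested. The part of adipocyte markers in these results was not tested.

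Of 9 genes of malonyl-CoA and fatty acid synthesis, TAC on the BCAA-free diet raised 1, Mcat, the mitochondrial malonyl transferase (0.30 ± 0.082, adjusted p = 0.0495), beside 3.34% of all genes. TAC on the BCAA-control diet moved 0 by limma (Mcat -0.41 ± 0.14, adjusted p = 0.102), beside 2.95% of all genes higher and 1.09% lower. Of the 9, 2 had an unadjusted p under 0.05, beside 4343 of all 15397 genes tested. The BCAA-free diet after TAC raised Mcat (0.55 ± 0.11) and Srebf1 (0.44 ± 0.12) and lowered Scd2 (-0.58 ± 0.10). For all genes those shares were 16.5% and 17.7%. The interaction was called for 4 higher and 2 lower of the 22 genes, with Acot7 at 0.64 ± 0.14, adjusted p = 0.0195. It was called for 1 each, all higher, in the peroxisomal (Amacr), triglyceride (Dgat2) and malonyl-CoA (Mcat) lists. Of all genes 4.92% were called higher and 3.73% lower.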

How the data were processed

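PolyA RNA of 12 heart samples was measured. The submitters' processing notes name STAR 2.5.2b, Trimmomatic 0.36, DESeq2 and Subread 1.5.2, and the builds mm10 and GRCm38; what each did, and whether counting used strand, is not given in the sources used here. The 4 deposited tables each hold a pair of groups; their signal is a normalized read count per gene and library, with their own log2 fold changes and p-values per the file headers. Dividing by the step of 1 read gave whole reads for 100% of values within 0.01, and a library's reads were the same in both of its tables; depth was 13848953 to 52059546 reads. The lowest mean value listed was 7.25.

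Each comparison was fitted over all genes of its table with limma 3.58.1 (R 4.3.3, statmod 1.5.0; intensity trend, robust) on log2(value + 1), leaving out genes averaging under 10. Benjamini-Hochberg adjustment ran across every gene in the fit, and an adjusted p under 0.05 was a call. Log2 fold changes are on that scale, ± SE. The interaction used the 12 libraries of both TAC tables. Replicates differed beyond counting error. The pipeline was tested on simulated counts. The 34 genes and all lists were chosen with earlier results of these data known; named with full values are, per comparison, the called genes with the 6 smallest p, the 2 largest changes, the 2 most abundant per kilobase and 10 pathway genes. Alternatives were TMM and library-total scaling, other filters and pseudocount, the replicate number as a block, edgeR 4.0.16 and DESeq2 1.42.0 on recovered reads, removal of GC content and length trends, each library left out and, chosen after seeing the data, scaling to 10 cardiomyocyte markers. Exon positions came from a GENCODE annotation of GRCm38, promoters from RefSeq. Slc27a6 and Acaa1b are not analysed here. The values of 1 peroxisomal gene are not reported here.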

Additional observations from a re-analysis of the deposited data

Results flagged for a closer look

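For 14 of the 34 genes the effect of TAC differed between the diets by the interaction test, with limma and an adjusted p under 0.05; in each, the TAC effect on the BCAA-free diet was the more positive. The differences, as log2 effects on the BCAA-free minus those on the BCAA-control diet, were as follows. Mlycd differed by 1.05 and Ech1 by 1.18. In the carnitine shuttle the value was 0.636 for Cpt2, 0.617 for Crat and 0.595 for Slc25a20. Slc27a1, the transport protein gene, differed by 0.745. In the oxidation spiral the value was 0.943 for Acaa2, 0.715 for Hadh, 0.627 for Acads and 0.611 for Hadha. The isomerases Eci1 and Eci2 differed by 0.951 and 0.576, the reductase Decr1 by 0.655 and the lipase Pnpla2 by 0.528. All 14 use the BCAA-control TAC libraries, of which replicate 2 was the lowest of 6 for 33 of 34 genes.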

How the results depend on the processing

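Apart from scaling to the cardiomyocyte markers, alternatives changed counts of called members more than medians. That scaling took the median from -0.564 to -0.132 for TAC on the control diet. It went from 0.469 to 0.0413 for the diet after TAC and from 0.607 to 0.0298 for the interaction. For TAC on the BCAA-free diet 0 members were called by edgeR on 12 libraries and 0 with GC content and length trends removed (4 and 8 at an unadjusted p under 0.05). Those fits called 0.408% and 0.544% of all genes. The median was -0.0454 under cardiomyocyte scaling. For TAC on the control diet the count was 5 when genes averaging under 100 were left out, 3 and 26 by edgeR on 6 and 12 libraries, 25 by DESeq2, 22 with the trends removed, and 4 with a median of -0.132 under cardiomyocyte scaling. The shares of all genes called in these fits were 4.31%, 3.57%, 20%, 14.3%, 10.1% and 35.8%, in that order. For the diet after TAC, cardiomyocyte scaling gave 8, with 44% of all genes called, and a median of 0.0413. For the diet after sham the count was 2 under library totals, edgeR on 12 libraries, DESeq2 and the trends removed. Of all genes 0.637%, 2.12%, 3.5% and 2.46% were called there, in that order. The median was 0.0561 under cardiomyocyte scaling. For the interaction library totals gave 7 and 0.436, cardiomyocyte scaling 4 and 0.0298, with 12.2% and 43.3% of all genes called. The causes were not tested. With 1 library left out the counts were 0 to 2, 0 to 17, 11 to 28, 0 to 2 and 1 to 22 for the 5 comparisons in that order, and the medians -0.0016 to 0.0532, -0.674 to -0.424, 0.357 to 0.581, -0.13 to -0.0231 and 0.486 to 0.676. The shares of all genes called were 0.306% to 7.73%, 0% to 6.89%, 21.2% to 33.2%, 0.0394% to 3.12% and 1.42% to 11.4%.

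Under cardiomyocyte scaling the median of all genes was -0.0792, 0.426, -0.425, 0.147 and -0.603 in the 5 comparisons, and 13, 10, 13, 13 and 12 of the 34 members changed sign. Among these, 10 were called before or after the scaling: for the diet after TAC, Cd36 (-0.285), Lpl (-0.0501), Fabp3 (-0.265), Cpt1b (-0.1004), Slc25a20 (-0.0588), Acadl (-0.135), Etfdh (-0.0119) and Acot13 (-0.00498), and for the interaction Eci2 (-0.00128) and Pnpla2 (-0.049). No other setting changed the sign of a called member. Under library totals the median of all genes was 0.145 for TAC on the control diet, -0.129 for the diet after TAC and -0.2 for the interaction.

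Replicate numbers did not pair the samples: deviations of same-numbered libraries correlated at -0.182 to 0.0812. With the replicate block the counts were 3, 10, 28, 0 and 18, beside 8.43%, 5.34%, 29.2%, 0.94% and 10.4% of all genes called. Samples of 3 a group limit all calls.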

Other observations

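The citric acid cycle, which takes up the acetyl-CoA made by fatty acid oxidation, and the nuclear regulators of these genes were read in the same way. Of 17 citric acid cycle genes, TAC on the BCAA-free diet moved 0 past the threshold, with a median log2 fold change of 0.021. Of all genes 3.34% were called higher and 2.89% lower there. The unadjusted p was under 0.05 for 4 of the 17, beside 3841 of all 15670 genes tested. TAC on the BCAA-control diet lowered 1, where 1.09% of all genes were called lower: Sdhc (-0.61 ± 0.13, adjusted p = 0.0462). The median of the 17 was -0.46, and 16 of 17 were lower in every TAC library, beside 17.4% of all genes. The BCAA-free diet after TAC raised 12 (median 0.41), where 16.5% of all genes were called higher, led by Idh2, which had 92245, 85944 and 84434 in the BCAA-free TAC libraries, against 54425, 40611 and 50202 in the BCAA-control TAC libraries. Idh2 was apart between the diets (0.86 ± 0.12, adjusted p = 0.00194), and Idh3g (0.67 ± 0.10), Sdhc (0.56 ± 0.10) and Sdhb (0.54 ± 0.12) rose as well. After sham 0 were called, beside 0.25% of all genes higher and 0.375% lower, and the median was -0.11. There 1 of the 17 had an unadjusted p under 0.05, beside 2525 of all 15217 genes tested. The interaction was called for 9 of 17, all higher, where 4.92% of all genes were, with a median of 0.56. The medians of the 34 fatty acid genes in the same 5 comparisons were 0.036, -0.56, 0.47, -0.092 and 0.61, from the same libraries.

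Among 10 regulators of the PPAR, ERR and PGC-1 group, Esrra, the gene of the receptor ERR alpha, had 5658, 4483 and 5407 in the BCAA-control TAC libraries, against 7521, 7590.1 and 7826 in the BCAA-control sham libraries. Esrra fell after TAC on the control diet (-0.57 ± 0.12, adjusted p = 0.0433), rose with the BCAA-free diet after TAC (0.56 ± 0.10, adjusted p = 0.00475) and differed in the interaction (0.73 ± 0.14, adjusted p = 0.013), while on the BCAA-free diet its TAC effect was 0.16 ± 0.073, adjusted p = 0.196. Esrrg, a related receptor gene, fell after TAC on the BCAA-free diet (-0.38 ± 0.082, adjusted p = 0.0258), and Klf15 rose with the BCAA-free diet after TAC (0.94 ± 0.21, adjusted p = 0.0135). After TAC 1 of the 10 was called lower on each diet, where 2.89% (BCAA-free) and 1.09% (BCAA-control) of all genes were. With the BCAA-free diet after TAC 2 were called higher and 0 lower, beside 16.5% and 17.7% of all genes. There 5 were positive and 5 negative, with a median log2 fold change of -0.00051. The interaction was called for 1 of 10, beside 4.92% of all genes called higher, with 7 positive and 3 negative. After sham 0 of the 10 were called, beside 0.25% of all genes higher and 0.375% lower. Klf15 alone had an unadjusted p under 0.05, beside 2525 of all 15217 genes tested.

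Across genes, log2 deviations from the gene means of all 12 libraries were set against transcript GC content. Spearman was -0.222 to 0.0376 in the 9 libraries other than those of BCAA-free TAC. The median GC content of the 34 genes was 51.3%, against 49.8% of all genes tested. Their median transcript length was 2688 bases, against 3216 for all genes tested. BCAA-control sham replicate 3 was highest for 25 members in the TAC comparison. Its deviations correlated with transcript length at Spearman -0.411, against 0.108 and 0.198 in the other BCAA-control sham libraries. The part of this in the results was not tested for single libraries.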
